A study of Bos taurus with 12 samples.

Results

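The 5 genes described here act in innate host defence in milk: the calgranulins S100A8, S100A9 and S100A12, lactoferrin (LTF) and haptoglobin (HP). They were chosen by Ensembl cattle gene ID, as ENSBTAG00000012640, ENSBTAG00000006505, ENSBTAG00000012638, ENSBTAG00000001292 and ENSBTAG00000006354 in that order, and all 5 were among the 24616 rows of the count table. The symbols came with the IDs; the table itself carries IDs only, so the pairing was taken as given. All 5 passed the filter on low counts.

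The RNA came from the fat layer of milk of 6 Holstein cows in early lactation. Each cow gave 1 control library and 1 library under lysine supplied past the rumen, labelled with the code 63 and described as a treatment for 63 days, so there were 6 control and 6 lysine libraries. The descriptions add a code B, which is 1 or 2 and the same for both libraries of an animal, and a code P, which runs from 1 to 4 and differs between them; what they stand for is not stated. The control carried the higher P code in cows 4319, 4345, 4381 and 4383, and the lysine library did in cows 4394 and 4408, whose controls were the only libraries with P code 1.

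Calgranulins are small calcium-binding proteins stored in quantity in the cytosol of neutrophils, the white blood cells that enter milk when the udder is challenged. S100A8 and S100A9 pair as calprotectin, which withholds zinc and manganese from microbes, and S100A12 binds zinc and copper and signals through the receptor RAGE. Lactoferrin is an iron-binding milk protein made by mammary epithelium and also stored in neutrophil granules. Haptoglobin is an acute phase protein that captures free haemoglobin and is measured in milk as a sign of mastitis. In the RefSeq annotation of ARS-UCD2.0, S100A8, S100A12 and S100A9 follow one another with no other gene between them.

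Library totals ran from 5.45 to 56.6 M counts with a median of 20.8 M (M stands for mega). Levels are given as normalised CPM, which are counts per M of a library's total after scaling that total by its TMM factor (trimmed mean of M values, 0.44 to 1.41), and were not corrected for gene length, so levels are compared between libraries and not between genes. The control library of cow 4394 stood apart: 8.49% of the genes expected there at 20 counts or more, from their level in the other 11 libraries, had no count. That share was 2.50% in the lysine library of the same cow, 1.74% in the control of cow 4408 and between 0% and 0.94% in the other 9 libraries. Markers of neutrophils, macrophages, lymphocytes and secretory cells were not tested, since no other ID was paired with a symbol, so the S100 levels below are not checked against other neutrophil genes. In RNA from a mixture of cells, fewer cells of a type and less RNA per cell cannot be told apart.

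S100A8 was scarce in every library and was missing from 2 of them. Control libraries held 0 CPM in cows 4394 and 4408, 0.53 in cow 4381, 3.93 in cow 4383, 4.02 in cow 4319 and 7.42 in cow 4345. The lysine libraries of the same cows held 3.67, 1.999, 0.55, 2.20, 2.21 and 4.46 CPM, so the lysine range lay inside the control range. With lysine S100A8 was lower in cows 4319, 4345 and 4383, by 1.81, 1.66 and 1.79 times, nearly level in cow 4381 (a ratio of 1.02) and higher in cows 4394 and 4408. Against the limit of 3 counts per library for a control with none, it was at least 23.0-fold higher in cow 4394 (77 counts against 0) and at least 11.7-fold higher in cow 4408 (50 counts against 0). From the other 11 libraries, 52.9 counts would have been expected in the control of cow 4394 and 49.5 in that of cow 4408.

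S100A9, the partner of S100A8 in calprotectin, was lowest in the same 2 controls. In controls it was at 0 CPM in cow 4394, 0.11 in cow 4408, 1.16 in cow 4381, 3.06 in cow 4383, 5.42 in cow 4319 and 8.99 in cow 4345. In lysine libraries it was at 3.24, 1.92, 0.52, 2.27, 11.7 and 2.79 CPM in those cows. The groups overlapped over most of their range. The lysine library of cow 4319 was the highest of all 12, 2.16 times its control, where S100A8 in the same 2 libraries went the other way. In cow 4345 S100A9 was 3.22 times lower with lysine. In cow 4394 it was at least 20.3-fold higher (68 counts against 0), and in cow 4408 the ratio was 16.9 on 48 against 2 counts (95% counting interval 4.42 to 143).

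S100A12, the third calgranulin, was detected in every library and was highest in cow 4345. Control libraries ran from 3.30 CPM in cow 4408 through a median of 23.8 to 151 in cow 4345, and lysine libraries from 8.48 in cow 4381 through a median of 27.7 to 138 in cow 4345. Both libraries of cow 4345 were thus above all others, and the highest library was 45.7 times the lowest. In cow 4408 S100A12 went from 58 to 723 counts, a ratio of 8.76 (95% counting interval 6.70 to 11.7). In cow 4394 both libraries held 227 counts, a ratio of 0.895 after scaling, although S100A8 and S100A9 went from 0 to 77 and 68 counts between them. The ratio was 2.06 in cow 4319, 0.914 in cow 4345, 0.628 in cow 4381 and 0.460 in cow 4383.

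**Figure D1:**
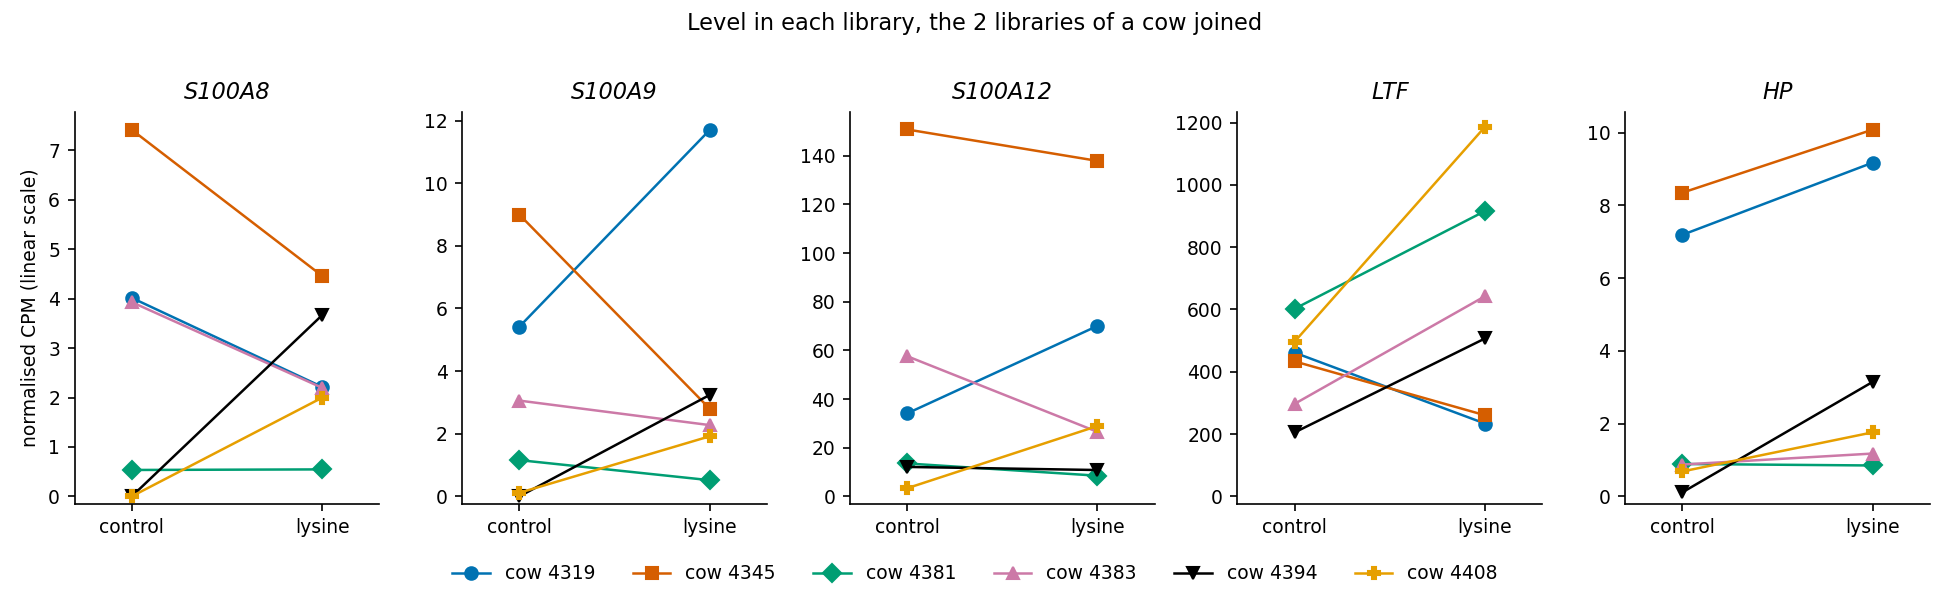
Normalised CPM (linear axes, 1 panel per gene) in the control and lysine library of each of 6 cows, with a line joining the libraries of a cow. The lines of S100A8 and S100A9 cross, those of cows 4394 and 4408 starting at or near 0; HP is above 7 CPM in both libraries of cows 4319 and 4345 and at or below 3.15 in all others; and LTF is lower with lysine in cows 4319 and 4345 and higher in the other 4.

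The make-up of the S100 counts was compared between libraries. S100A8 and S100A9 together took 21.7% of the counts of the 3 S100 genes in the control and 16.6% in the lysine library of cow 4319, and 9.81% and 5.0% in cow 4345. They took 11.1% in both libraries of cow 4381, and 10.8% and 14.4% in cow 4383. In cow 4408 the share was 3.33% in the control (2 of 60 counts, 95% Wilson interval 0.92 to 11.4%) and 11.9% with lysine. In cow 4394 it was 0% in the control (0 of 227 counts, 95% Wilson interval 0 to 1.66%) and 39.0% with lysine (145 of 372, 95% Wilson interval 34.2 to 44.0%). The libraries of cow 4394 were therefore both the lowest and the highest of the 12, and their intervals did not overlap; these intervals cover counting error only, since without molecular identifiers several reads can come from 1 molecule. The share of genes without a count in the control of cow 4394, given above, goes with its missing S100A8 and S100A9, and its part in this difference was not tested.

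**Figure D2:**
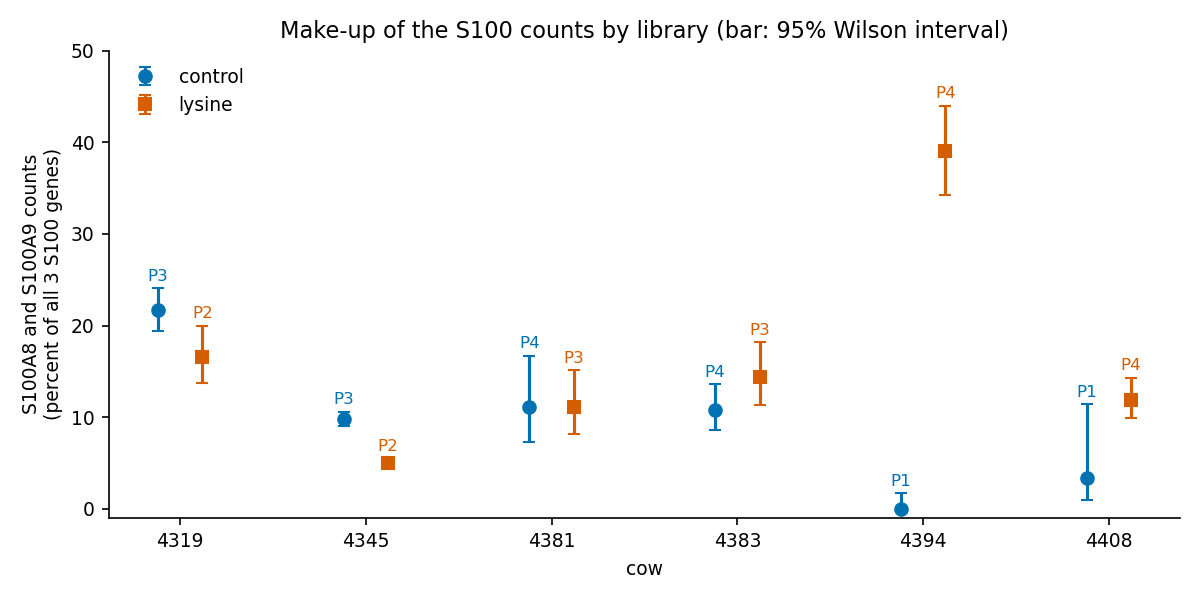
Share of S100A8 and S100A9 in the counts of S100A8, S100A9 and S100A12 (percent, y axis) in the control and lysine library of each cow, with 95% Wilson intervals as bars and the P code above each point. Most libraries lie between 5.0% and 21.7%; the control of cow 4394 is at 0% and its lysine library at 39.0%.

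The share of S100A8 in the counts of the calprotectin pair was also compared between libraries. In the 9 libraries with at least 30 counts of the pair, S100A8 took a median of 51.0% of them. A share of 50% serves only as a mark for comparing libraries. Counts were not corrected for gene length, so it does not stand for equal levels of the 2 genes. The 95% Wilson interval held 50% in 7 libraries of the 11 with any count. Those 7 held only 2 to 145 counts of the pair, which leaves wide intervals. The intervals of both libraries of cows 4319 and 4345 did not hold it. The lysine library of cow 4319 departed most, with S100A8 at 15.9% (14 of 88 counts, 9.72 to 25.0%), against 42.6% (36.7 to 48.7%) in its control. The lysine library of cow 4345 departed the other way, with 61.5% (56.6 to 66.2%) against 45.2% (41.0 to 49.5%) in its control.

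LTF was well measured in every library, with 1477 to 30243 counts. It was at 416 ± 143 CPM in control and 625 ± 374 CPM in lysine libraries (mean ± SD, n = 6 each), and the groups overlapped. With lysine it was 2.47 times higher in cow 4394, 2.39 in cow 4408, 2.17 in cow 4383 and 1.52 in cow 4381, and 1.98 times lower in cow 4319 and 1.67 in cow 4345. The highest library of all, the lysine library of cow 4408 at 1187 CPM, came from the cow whose control ranked lowest for S100A12. The direction in cows 4381 and 4383 depended on the scaling: as CPM of the library total, without TMM factors, the ratios were 0.996 (535 against 537 CPM) and 0.777, and LTF was higher with lysine in 2 of 6 cows in place of 4. The lysine libraries of these 2 cows had the lowest TMM factors, 0.58 and 0.44.

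HP, the acute phase protein, was at or below 3.15 CPM in both libraries of 4 cows and at or above 7.19 in those of the other 2. Cow 4345 had 8.35 CPM in the control and 10.1 with lysine, and cow 4319 had 7.19 and 9.17. The other controls were at 0.11, 0.68, 0.87 and 0.89 CPM in cows 4394, 4408, 4383 and 4381, and their lysine libraries at 3.15, 1.76, 1.18 and 0.85. HP was thus higher with lysine in 5 of 6 cows (4 of 6 when scaled by totals alone), a pattern that 11.7% of all tested genes shared. The ratio in cow 4394 was 29.5 on 66 against 2 counts (95% counting interval 7.86 to 249), in the pair of libraries that also differed in S100A8 and S100A9. From the other 11 libraries, 75.4 counts of HP would have been expected in that control. It is the library where 8.49% of genes expected at 20 counts or more had none, and the part of this in the ratio was not tested. In the other 5 cows the ratio lay between 0.954 and 2.58. The counting intervals of ratios, here and above, also cover counting error only.

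The main comparison asked whether lysine changed these genes within cows. None of the 5 passed, as was so for every tested gene: 0% of the 11323 tested genes were higher and 0% lower past an adjusted threshold of 0.05 (edgeR's quasi-likelihood test, blocked by cow, with Benjamini-Hochberg adjustment over the whole table). Without adjustment 286 genes (2.53%) had a p under 0.05, no member among them, and DESeq2 and limma voom called 0 genes too, with 543 and 593 at an unadjusted p under 0.05. The p-values rest on how far the within-cow changes of the 6 cows spread, with the spread of each gene drawn towards that of all tested genes.

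For S100A8 the log2 fold change, lysine over control, was 0.84 ± 1.17 (SE, 95% interval -1.71 to 3.39). For S100A9 it was 0.83 ± 1.01 (-1.37 to 3.02). Both estimates rest on the cows whose controls held 0 to 2 counts, and a fitted value for such genes depends on how zeros are handled. Without cow 4394 they were 0.07 and 0.10, without cow 4408 0.15 and 0.26, and with limma voom they turned to -0.18 and -0.17. For S100A12 the log2 fold change was 0.25 ± 0.45 (-0.72 to 1.22), and -0.20 without cow 4408. For LTF it was 0.45 ± 0.33 (-0.27 to 1.17) and for HP 0.96 ± 0.59 (-0.33 to 2.25). Without cow 4394 the value of HP was 0.46. With a cow left out LTF ran from 0.26 without cow 4394 to 0.73 without cow 4319; leaving out cow 4383 gave 0.30, leaving out cow 4408 gave 0.29, and leaving out cow 4345 gave 0.70. S100A12 was at 0.06 without cow 4319. The adjusted p of each of the 5 was 1 by edgeR, and the unadjusted p ran from 0.13 for HP to 0.59 for S100A12.

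These intervals are wide for the S100A8 pair and narrower for LTF. The median standard error over all tested genes was 0.34, close to the 0.33 of LTF and well under the 1.17 of S100A8 and the 1.01 of S100A9. A change of up to 2.24-fold in LTF in the direction of lysine lies within its interval, and one of up to 10.5-fold in S100A8. Sign-flip permutation over the 6 within-cow differences of log2 CPM, exact and two-sided, gave p = 0.469 for S100A8, 0.406 for S100A9, 0.75 for S100A12, 0.313 for LTF and 0.0625 for HP, where 6 cows cannot give less than 0.0312. With libraries scaled by totals alone the same exact permutation gave p = 0.344 for HP and 0.688 for LTF.

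When libraries were scaled by their totals alone, the log2 fold change of the median gene moved from 0.04 to -0.26. On that scale LTF was at 0.11, HP at 0.72, S100A12 at -0.02, S100A8 at 0.57 and S100A9 at 0.57. Relative to the median gene of each scale, LTF was at 0.41 with TMM factors and 0.37 with totals, and HP at 0.92 and 0.98.

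**Figure D3:**
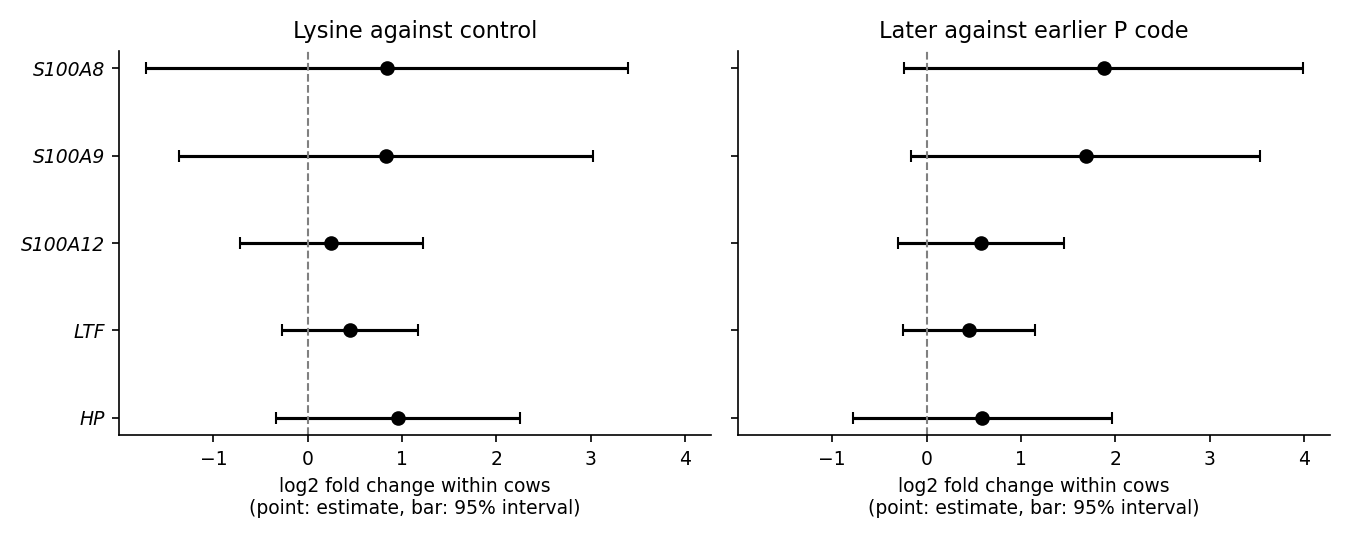
Log2 fold change within cows (x axis) of the 5 genes by edgeR with cow as a block, for lysine against control (left) and for the library with the higher against that with the lower P code (right), points with 95% intervals. Every interval includes 0; those of S100A8 and S100A9 in the right panel start just below it, at -0.24 and -0.16.

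Lysine was given to cows of both B codes, and the change was also read within each. In the 3 cows coded B1 the log2 fold changes of S100A8, S100A9, S100A12, LTF and HP were 0.69, 1.72, -0.07, 0.52 and 1.55. In the 3 cows coded B2 they were 0.90, -0.16, 0.62, 0.38 and 0.51. The B2 minus B1 difference rested on single cows: without cow 4394 that of HP went from -1.01 to 0.11 and that of S100A9 from -1.81 to -0.59. For S100A9 it was -0.55 without cow 4345 and -3.23 without cow 4383. No member passed the test of a difference between the B codes (edgeR interaction test, lowest adjusted p 0.85, for S100A9), nor did any tested gene (0% of 11323, with 784 at an unadjusted p under 0.05; DESeq2 called 43).

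Each cow was also read by its P codes, in the order of the numbers. Later and earlier name the higher and the lower code here, and the labels do not give an order in time. S100A8 was higher in the library with the higher P code in 5 of 6 cows, and in 6 of 6 when scaled by totals alone; S100A9 was so in 5 of 6 on either scale, S100A12 in 4 of 6 on either scale, LTF in 4 and 6, and HP in 3 and 4. Of all tested genes 12.6% were higher with the later code in at least 5 of 6 cows on the TMM scale and 16.2% with totals alone, and 1.95% and 2.49% were so in 6 of 6. Between these scales the log2 fold change of the median gene moved from 0.05 to 0.25. The log2 fold change of later over earlier was 1.88 ± 0.98 (SE) for S100A8, 1.68 ± 0.85 for S100A9, 0.57 ± 0.41 for S100A12, 0.45 ± 0.32 for LTF and 0.59 ± 0.64 for HP. None passed, nor did any tested gene (0% of 11323 by edgeR with cow as a block, adjusted p 0.99 for each member, 388 genes at an unadjusted p under 0.05; DESeq2 called 1 gene). This comparison was chosen after the values had been seen and shares its 12 libraries with that of lysine. The 2 controls with P code 1 carried much of it: without cow 4394 the value of S100A8 was 1.21, that of S100A9 1.03, that of LTF 0.26 and that of HP 0.05. Without cow 4408 S100A8 was at 1.301, S100A12 at 0.13 and LTF at 0.26, while LTF was at 0.75 without cow 4383 and S100A12 at 0.91 without cow 4319. By totals alone, later over earlier in S100A8, S100A9, S100A12, LTF and HP was 2.21, 2.065, 0.83, 0.64 and 0.84. The unadjusted p by edgeR was then 0.0045 for S100A8 and 0.0029 for S100A9. It was under 0.05 in 426 of 11323 genes, and no member passed. Exact sign-flip permutation by totals gave p = 0.0312 for S100A8 and LTF, the least possible, and 0.0625, 0.344 and 0.219 for S100A9, S100A12 and HP. With TMM factors S100A8 and LTF were at 0.0625 and 0.344. With the P code as a covariate beside cow, the log2 fold change of S100A8 for lysine was 1.78 (unadjusted p = 0.016, adjusted p = 0.999 by edgeR). In that model S100A9 was at 0.94, S100A12 at 0.19, LTF at 0.32 and HP at 0.89, with unadjusted p from 0.092 to 0.63. Of the 11323 tested genes 335 had an unadjusted p under 0.05 there, and 0 passed. The 2 controls without a count of S100A8 are also the only libraries with P code 1, and what they contribute to the 1.78 was not tested.

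The cows were then compared with each other. Over all tested genes 1.42% differed between cows (161 genes, edgeR quasi-likelihood F test of the cow terms, adjusted p under 0.05), and none of the 5 members was among them. S100A12 came closest (F = 9.10, unadjusted p = 0.0009, adjusted p = 0.052), followed by HP (F = 5.87, adjusted p = 0.12), LTF (adjusted p = 0.49), S100A9 (0.52) and S100A8 (0.74). S100A12 and HP were at an unadjusted p under 0.05, as were 15.5% of all tested genes. S100A12 passed with DESeq2 (adjusted p = 2.01e-07), when scaled by totals alone (0.045), without cow 4383 (0.043) and without cow 4408 (0.0039), and stood at 0.63 without cow 4345 and 0.36 without a filter on low counts. HP passed with DESeq2 (0.00038), with library totals (0.021), without a filter on low counts (0.0043) and without cow 4394 (0.022), and stood at 0.68 without cow 4345. More genes passed in most of these settings too. The shares of tested genes were 13.4% with DESeq2, 3.5% with library totals and 5.01% without a filter. They were 3.76% with cow 4408 left out, 1.61% with cow 4383 left out and 1.21% with cow 4394 left out. Leaving out cow 4345 lowered the calls across the whole table, to 9 of 10914 tested genes. The 0.63 of S100A12 and the 0.68 of HP can therefore not be read as particular to these genes.

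The S100 genes had the same 3 cows above the other 3, though not in the same order within each set. By the mean of both libraries, S100A12 was at 144 CPM in cow 4345, 52.1 in cow 4319 and 42.1 in cow 4383, and at 16.1, 11.5 and 11.0 in cows 4408, 4394 and 4381. For S100A8 the means were 5.94, 3.12 and 3.06 CPM in cows 4345, 4319 and 4383, and 1.83 or less in the others. For S100A9 they were 5.89, 8.56 and 2.67, and 1.62 or less in the others. Single libraries overlapped between these cows: the lysine library of cow 4394, at 3.67 CPM of S100A8, was above those of cows 4319 and 4383. HP had 9.21 and 8.18 CPM in cows 4345 and 4319 but 1.02 in cow 4383, in the range of the 3 low cows (0.87 to 1.63). LTF ran in another order, from 842 CPM in cow 4408 and 759 in cow 4381 to 348 in cow 4319 and 347 in cow 4345. Cows 4408 and 4381, highest in LTF, were in the lower set for all S100 genes, and cow 4394 was low in both (356 CPM of LTF). As the cows fell into separate sets, no correlation of cow means is given.

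**Figure D4:**
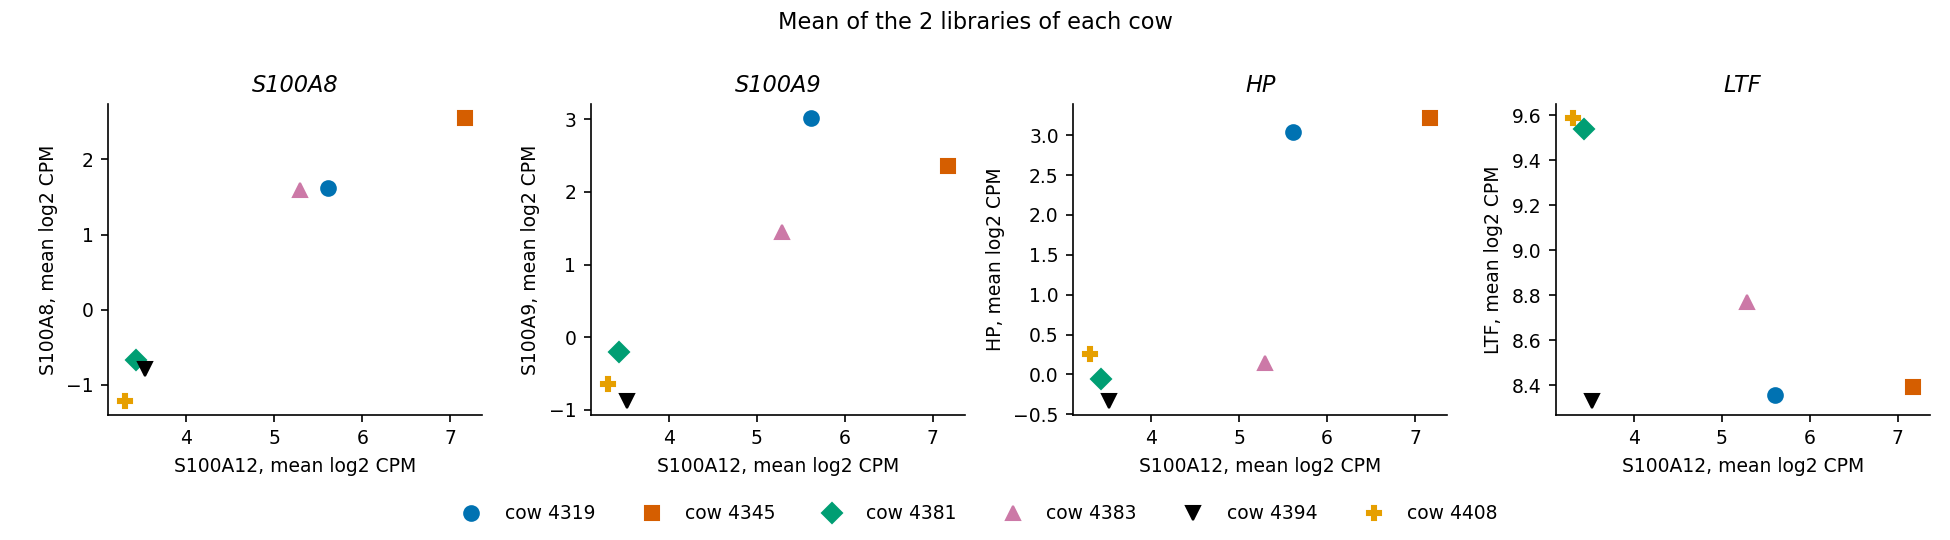
Mean log2 CPM over both libraries of each of 6 cows, S100A12 on the x axis and S100A8, S100A9, HP and LTF on the y axes. Cows 4319, 4345 and 4383 are to the right and higher for S100A8 and S100A9, HP is high in cows 4319 and 4345, and LTF is highest in cows 4381 and 4408, at the left.

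Changes within cows were compared between genes as well. For S100A8 and S100A9, cows 4394 and 4408 lay far from the other 4, so that no pooled correlation with them is given; both genes were higher with lysine in those 2 cows, and in the other 4 both were lower in cows 4345 and 4383 and they moved oppositely in cow 4319. In cow 4381 S100A9 was lower with lysine and S100A8 nearly level on few counts (6 and 18), with a ratio of 1.02 that was 0.669 when scaled by totals alone. For the other 3 pairs, over 6 cows, the log2 changes of LTF and HP had Pearson r = 0.51 (exact permutation p = 0.142, adjusted p = 0.283 over 10 pairs; Spearman rho = 0.77, exact permutation p = 0.103, adjusted 0.343), and r = 0.70 without cows 4319 and 4345, the farthest from the median in LTF, with cow 4394, which changed most in HP, kept; it was 0.43 without cow 4394. S100A12 and HP had r = 0.09 (exact permutation p = 0.683, adjusted 0.759; rho = 0.20, exact permutation p = 0.714, adjusted 0.892), and 0.49 without cows 4319 and 4408, the farthest in S100A12. Without cow 4394 alone r was 0.859 (exact permutation, adjusted p = 0.417), so the value near 0 rests on that cow. Among the cows then left, cow 4408 had the highest ratio in both genes, 8.76 for S100A12 and 2.58 for HP. The value of r without both of these cows was not computed. S100A12 and LTF had r = 0.03 (exact permutation p = 0.914, adjusted 0.914; rho = -0.14, exact permutation p = 0.803, adjusted 0.892), and -0.44 without cows 4319 and 4408.

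Across all 12 libraries the S100 genes and HP were among the more variable genes of milk fat RNA, and LTF was not. The SD of log2 CPM was 2.15 for S100A8, 2.11 for S100A9, 1.80 for HP and 1.67 for S100A12, at percentiles 98.6, 98.2, 94.6 and 91.5 of the tested genes, whose median was 0.64. For LTF it was 0.78, at percentile 60.6. Scarce genes vary more by counting alone, and levels were not matched here. Among the 7356 other genes that averaged at least 5 CPM, the one whose log2 CPM followed S100A8 most closely was ENSBTAG00000012361 (Pearson r = 0.93 over 12 libraries from 6 cows), about as close as S100A9 (0.93). It was also low in the controls of cows 4394 and 4408, at 0.64 and 1.25 CPM, and at 5.43 and 12.3 CPM in their lysine libraries. The gene closest to LTF was ENSBTAG00000001612 (r = 0.88), which ranged from 7.01 to 14.6 CPM. LTF itself had r = 0.04 with S100A8. These correlations describe libraries that share cows and depth, and the highest of many is high in part by choice. Those with S100A8 include the 2 controls without a count of it. These lie at a log2 CPM of -3.48, far below the next lowest library at -0.68, and r without them was not computed.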

How the data were processed

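The deposited table holds raw read counts per gene, whole numbers in every cell, 1 column per library and 24616 rows, neither normalised nor pooled, per the file headers and values; for the aligner, counter, strand setting, build and annotation the answer is not given in the sources used here. Each column carried the description of 1 sample, no column was unused and no 2 libraries were identical. The table of 37063 RefSeq genes (ARS-UCD2.0) matched 0 of the IDs, so only the 5 given genes are named, the fixed lists of markers and host defence genes were not tested, and no sequence or position is printed.

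Groups and cow numbers came from the sample titles. From the counts, filterByExpr (10 counts, about 0.48 CPM, in at least 6 libraries) kept 11323 genes with 99.9% of all counts. Quasi-likelihood models (edgeR 4.0.16, R 4.3.3, TMM, robust, two-sided, Benjamini-Hochberg, threshold 0.05) had cow as a block, since the libraries of a cow come from 1 animal; their deviations from the group means correlated at -0.02 to 0.66 (median 0.19), against a median of -0.03 between cows. A standard error is the estimate divided by the root of F. Permutation tests and intervals used SciPy 1.17.1, and log2 CPM used a prior count of 2. Alternatives used DESeq2 1.42.0 and limma 3.58.1. The models were tested on simulated data. Genes named are the 5 members and, by rule, the first gene most like S100A8 and LTF. Members and lists were chosen with earlier results of these data known.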

Additional observations from a re-analysis of the deposited data

Results flagged for a closer look

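Among 22 groups of 6 values looked at for the 5 genes, 4 held a highest or lowest value whose gap to its neighbour passed Dixon's 95% limit. About 1 in 20 groups does so by chance if values are normally distributed. CPM and shares were taken without a log scale, where a few high values are common, and the groups share libraries. The 4 can therefore not be set against that rate. The lysine library of cow 4319 had 11.7 normalised CPM of S100A9, and the next lysine library had 3.24. The control library of cow 4345 had 151 normalised CPM of S100A12, and the next control had 57.6. The log2 CPM of HP was 4.04 higher with lysine than in the control of cow 4394, and the next largest difference was 1.26 in another cow; the control value rests on 2 counts. S100A8 and S100A9 took 39.0% of the S100 counts in the lysine library of cow 4394, and the next lysine library was at 16.6%.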

How the results depend on the processing

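Over 16 alternatives to the main model (2 scalings, 2 filters, 2 other tests, no cow block, the P code as a covariate, each B code alone and each cow left out), the log2 fold changes of the 5 genes for lysine took 77 values, 70 in the same direction and 7 in the other, and none passed (lowest adjusted p 0.69); S100A8, S100A9 and HP had no value at a mean of 5 CPM, which they did not reach. The 7 were S100A8 with no replicate block (-0.0802) and limma voom (-0.18), S100A9 with limma voom (-0.17) and in B2 cows (-0.16), and S100A12 with library totals (-0.0166), in B1 cows (-0.0702) and without cow 4408 (-0.20, its range with a cow left out being -0.20 to 0.55). The cow block changed no call: 0 genes passed with it and with no replicate block. Lysine called 1 gene without a low-count filter and 1 in B2 cows. The cow effect was 161 genes, 396 with library totals, 829 without a filter, 1518 with DESeq2 and 9 to 429 with a cow left out. The B code comparison called 30 genes without a filter, 43 with DESeq2 and 0 to 1 with a cow left out, the 1 without cow 4394. The P code comparison called 1 with library totals and 1 with DESeq2. The mean within-cow log2 difference of S100A12 was 0.34, and -0.21 to 0.64 with a cow left out, negative without cow 4408. The correlation of changes in S100A12 and LTF ran from -0.736 to 0.247 with a cow left out and was -0.44 without the 2 cows farthest in S100A12, and that of S100A12 and HP from -0.0293 to 0.859, the highest without cow 4394. The cause of these moves was not tested. Low counts limit S100A8, S100A9 and HP, which had fewer than 20 counts in several libraries. For S100A8 and S100A9 these include the deepest library, the lysine library of cow 4381, with 18 and 17 counts.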
